A study of Saccharomyces cerevisiae with 6 samples.

Results

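The genes described here are 10 genes of iron uptake and siderophore transport in budding yeast, out of 5420 genes read on the array: FET3, FTR1, FRE1, SIT1, ENB1, ARN1, ARN2, FIT1, FIT2 and FIT3. They were taken as a list of known genes, matched by symbol, and each was read by 1 probe set annotated to that gene alone. The cultures were of strain DBY746, labelled wild-type, and 3 were grown with 300 ng/ml myriocin and 3 without it. Myriocin, made by a fungus, blocks the enzyme that begins sphingolipid synthesis, serine palmitoyltransferase. All 6 cultures received ethanol to 0.3%, grew at 30 °C in SDC medium of pH 6 from 0.002 to 2 A600 units per ml, and were described as biological replicates. RNA from each culture was hybridised to 1 single-colour array, and the values are log2 signals per probe set, so a difference of 1 is a 2-fold difference. The values were used as the authors deposited them.

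Yeast takes up iron in several ways. In the reductive route, a surface reductase such as Fre1 turns ferric iron into ferrous iron, and a complex of the copper-containing oxidase Fet3 and the permease Ftr1 carries it into the cell. In the siderophore route, iron bound to small chelators made by other microbes enters through the transporters Arn1, Arn2, Sit1 and Enb1, while the mannoproteins Fit1, Fit2 and Fit3 hold such chelates in the cell wall. Genes of both routes are switched on by the transcription factors Aft1 and Aft2 when iron is scarce.

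The arrays were alike in overall level, with median log2 signals between 11.06 and 11.08 over the 5420 genes, and 95.4% to 95.7% of genes per array exceeded a background ceiling. The ceiling is 2.07, the highest log2 signal of 50 negative-control probe sets. The number of arrays limits the precision, and the standard error (SE) of log2 fold changes had a median of 0.11. Spiked-in hybridisation controls, 26 probe sets above background, were every one lower on the myriocin arrays, with a median log2 fold change of -0.25. Scaling to these controls adds 0.32 to every log2 fold change and puts the median of all genes at 0.29 in place of -0.03; its results, called control-scaled, are given wherever they alter a call. Probe sets for ribosomal RNA were lower on the myriocin arrays in 16 of 17 cases, with a median log2 fold change of -1.61, and their part in the results was not tested.

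The question was how the genes that bring iron into the cell differed between cultures grown with and without myriocin. They did not all move one way. FET3 and FTR1, which encode the oxidase and permease, fell. SIT1 and ENB1, which encode siderophore transporters, fell too. The reductase gene FRE1 rose slightly, and ARN1, ARN2, FIT2 and FIT3 did not pass the test. FIT1 was at background. In limma's test at an adjusted p under 0.05, 4 of the 10 genes were lower and 1 was higher, while 28.8% of all genes were called lower and 25.5% higher, so a call in either direction was common on these arrays. SIT1, ENB1 and FET3, 3 of the 10, were called and at least 2-fold lower, against 7.51% of all genes. The groups did not overlap in 4 genes that were lower and 1 that was higher, against 35.8% and 30.6% of all genes. The median log2 fold change of the 10 genes, FIT1 at background included, was -0.02, beside -0.03 for all genes. In bulk RNA, a lower level in every cell and a loss in only some of the cells cannot be told apart.

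**Figure D1:**
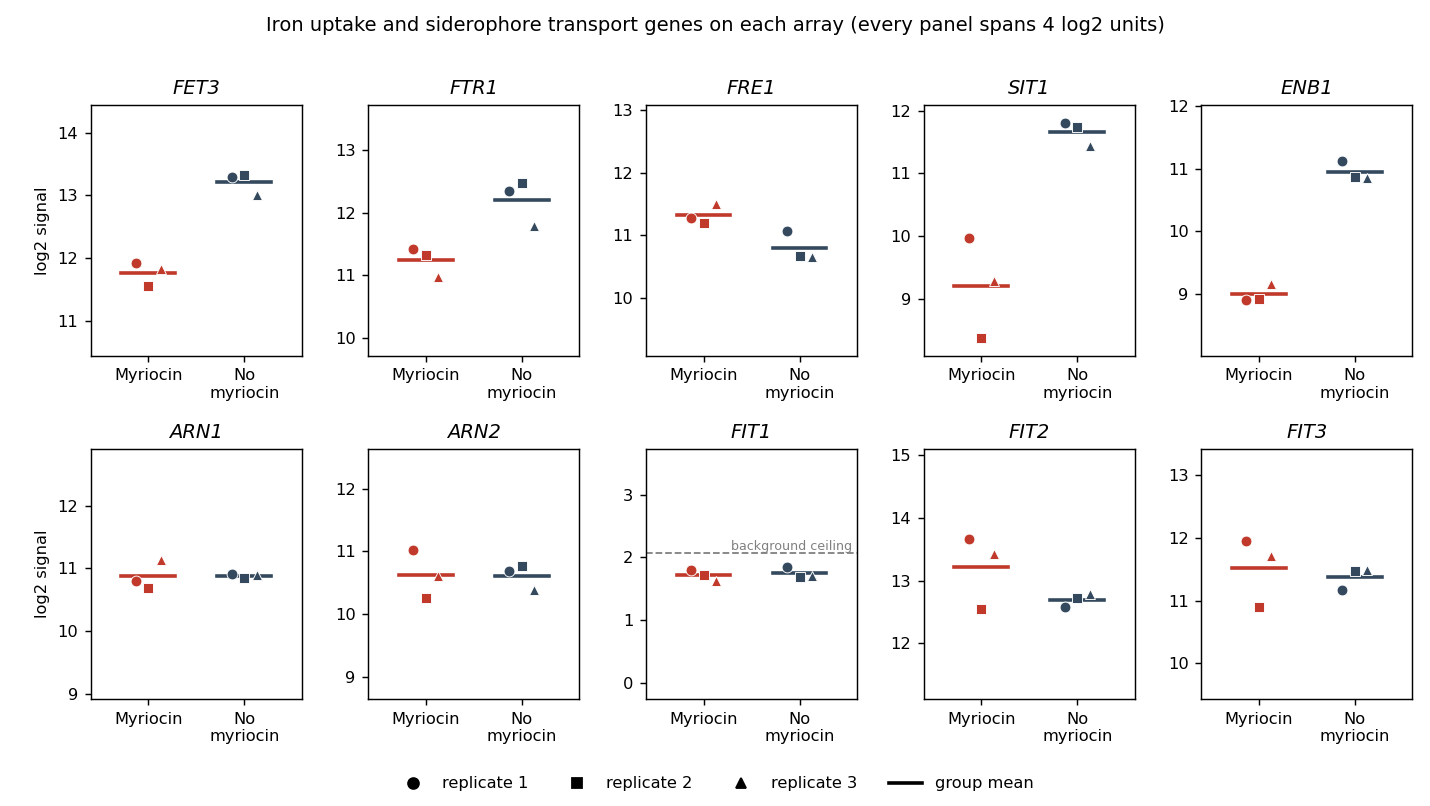
Log2 signal (vertical axis) of each of the 10 genes on the 3 myriocin arrays and the 3 arrays without myriocin; symbols are replicates, bars are group means, and each panel spans 4 log2 units. FET3, FTR1, SIT1 and ENB1 lie lower on every myriocin array than on any array without it, FRE1 lies higher, and FIT1 lies under the background ceiling of 2.07 on all 6 arrays.

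In the reductive route, FET3 (systematic name YMR058W, chromosome XIII) encodes the oxidase that reoxidises ferrous iron at the plasma membrane. Its log2 signal was 11.92, 11.55 and 11.83 with myriocin (replicates 1 to 3), against 13.30, 13.33 and 13.02 without it. All myriocin arrays lay well under the lowest array without it. FET3 averaged 11.77 ± 0.19 with myriocin and 13.21 ± 0.17 without it (SD, n = 3 each), a log2 fold change of -1.45 (SE 0.13, 95% interval -1.77 to -1.13, limma adjusted p = 0.000471), or 2.73-fold lower.

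FTR1 (YER145C, chromosome V) encodes the permease that works only together with the oxidase. Its log2 signal was 11.42, 11.32 and 10.96 with myriocin, against 12.34, 12.46 and 11.79 without it. The groups did not overlap, and replicate 3 without myriocin came closest to the myriocin arrays. The log2 fold change was -0.96 (SE 0.21, 95% interval -1.47 to -0.45, limma adjusted p = 0.00967), or 1.95-fold lower. Both subunit genes fell, and whether their changes differ in size was not tested.

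FRE1 (YLR214W, chromosome XII) encodes a reductase for ferric iron and cupric copper at the cell surface, and is known to answer to the copper-sensing factor Mac1 as well as to Aft1. It moved the other way, with log2 signals of 11.28, 11.19 and 11.49 with myriocin, against 11.07, 10.67 and 10.66 without it. The groups did not overlap, and replicate 2 with myriocin lay close to replicate 1 without it. The log2 fold change was 0.52 (SE 0.14, 95% interval 0.17 to 0.87, limma adjusted p = 0.0241), or 1.43-fold higher. This call was lost without myriocin replicate 1 or 3 or without no-myriocin replicate 2 or 3 (limma adjusted p between 0.054 and 0.0799), and in an equal-variance test of each gene (adjusted p = 0.0661).

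Among the siderophore transporters, SIT1 (YEL065W, also called ARN3, chromosome V) carries ferrioxamine-type chelates. SIT1 had log2 signals of 9.96, 8.37 and 9.28 with myriocin, against 11.80, 11.74 and 11.44 without it. It had the largest change of the 10 genes and the widest spread among myriocin arrays, an SD of 0.80 with myriocin beside 0.19 without it. Its log2 fold change was -2.45 (SE 0.38, 95% interval -3.39 to -1.52, limma adjusted p = 0.00279), or 5.48-fold lower. Leaving out 1 array at a time gave log2 fold changes between -2.83 and -2.04.

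ENB1 (YOL158C, also called ARN4, chromosome XV) carries the bacterial siderophore enterobactin. ENB1 had log2 signals of 8.91, 8.92 and 9.15 with myriocin, against 11.12, 10.87 and 10.85 without it. The arrays of each group lay close together, and the groups were far apart. ENB1 had a log2 fold change of -1.95 (SE 0.11, 95% interval -2.22 to -1.69, limma adjusted p = 0.000133), or 3.87-fold lower.

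ARN1 (YHL040C, chromosome VIII) carries ferrichrome-type chelates. ARN1 had log2 signals of 10.80, 10.68 and 11.14 with myriocin, against 10.91, 10.85 and 10.89 without it. The arrays without myriocin sat inside the range of the myriocin arrays, and the log2 fold change was -0.01 (SE 0.13, 95% interval -0.31 to 0.30, limma adjusted p = 0.96). ARN2 (YHL047C, also called TAF1, chromosome VIII) encodes a transporter of triacetylfusarinine chelates. Signals of ARN2 were 11.02, 10.26 and 10.61 with myriocin, against 10.68, 10.77 and 10.38 without it, and the groups overlapped. The log2 fold change was 0.02 (SE 0.21, 95% interval -0.49 to 0.53, limma adjusted p = 0.943). As ratios of myriocin over no myriocin, these intervals run from 0.80 to 1.23 for ARN1 and from 0.71 to 1.44 for ARN2. Control-scaled changes of 0.31 and 0.33 also did not pass (limma adjusted p = 0.116 and 0.156).

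The 4 transporters belong to 1 gene family, and the difference between their changes was tested directly, in all 6 comparisons of 2 family members, as the log2 signal of the first minus that of the second on each array. SIT1 minus ARN1 lay between -2.31 and -0.83 with myriocin and between 0.56 and 0.90 without it, a shift of -2.45 (SE 0.45). ENB1 minus ARN1 lay between -1.99 and -1.76 with myriocin and between -0.04 and 0.21 without it, a shift of -1.95 (SE 0.10). These differences did not overlap between groups, and neither did those of SIT1 and ENB1 against ARN2, with shifts of -2.47 (SE 0.25) and -1.97 (SE 0.27). Each of these 4 comparisons gave an exact two-sided permutation p = 0.1, the smallest that 3 against 3 arrays allow, or 0.15 after Benjamini-Hochberg adjustment over the 6. SIT1 against ENB1 shifted by -0.50 (SE 0.47, exact permutation p = 0.4, adjusted 0.48) and ARN1 against ARN2 by -0.03 (SE 0.27, exact permutation p = 0.9, adjusted 0.9), each with overlapping groups.

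**Figure D2:**
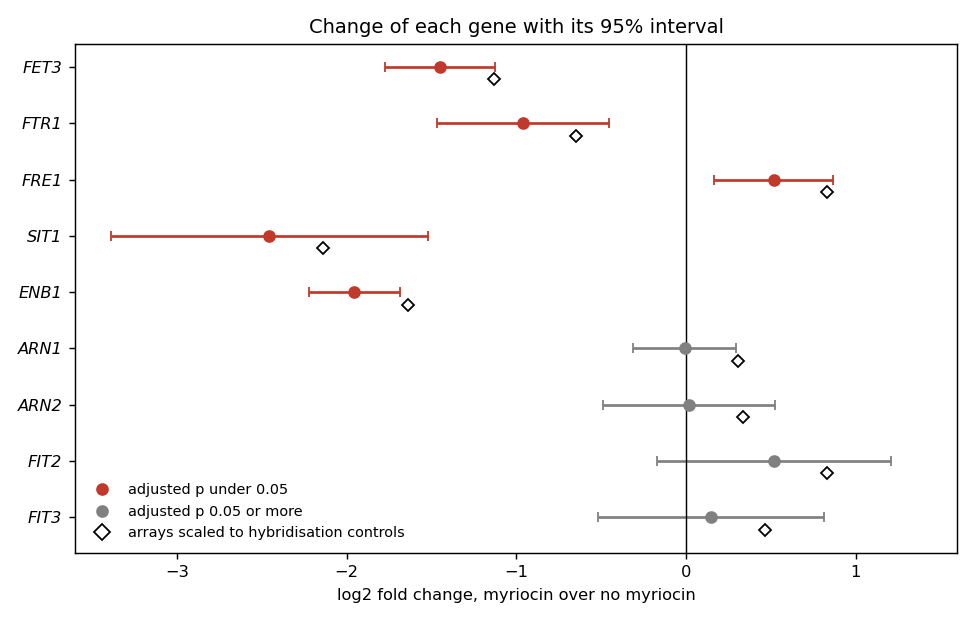
Log2 fold change of myriocin over no myriocin (horizontal axis) of the 9 genes above background, with 95% intervals from limma; diamonds give the same change after scaling to the hybridisation controls. SIT1, ENB1, FET3 and FTR1 lie left of 0 by both measures, from -2.45 to -0.96 in the deposited values, FRE1 lies right of 0, and the intervals of ARN1, ARN2, FIT2 and FIT3 span 0.

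The FIT genes encode the wall mannoproteins. FIT1 (YDR534C, chromosome IV) had log2 signals of 1.80, 1.71 and 1.63 with myriocin, against 1.85, 1.69 and 1.70 without it. All lay under the ceiling of 2.07, so FIT1 was not well above background in any culture and no fold change is given.

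FIT2 (YOR382W, chromosome XV) had log2 signals of 13.67, 12.54 and 13.42 with myriocin, against 12.58, 12.72 and 12.78 without it. Myriocin replicates 1 and 3 were higher than every array without myriocin, and replicate 2 was lower than all of them. The log2 fold change was 0.52 (SE 0.28, 95% interval -0.17 to 1.21, limma adjusted p = 0.168). This result turned on a single array: without myriocin replicate 2 the log2 fold change was 0.85 (limma adjusted p = 0.00394). It also passed control-scaled, at 0.83 (limma adjusted p = 0.0221).

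FIT3 (YOR383C), which lies next to FIT2 on chromosome XV, gave the same order of arrays with myriocin. Its log2 signal was 11.95, 10.90 and 11.72 with myriocin, against 11.17, 11.47 and 11.49 without it. The log2 fold change was 0.15 (SE 0.27, 95% interval -0.52 to 0.81, limma adjusted p = 0.676), or 0.46 without myriocin replicate 2 (limma adjusted p = 0.0436). SIT1, which had a large fall, was lowest on the same array as FIT2 and FIT3.

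The myriocin arrays therefore differed among themselves in these genes, a pattern examined after its values were seen. Myriocin replicate 2 was the lowest of the 3 myriocin arrays in 7 of the 9 genes above background, FET3, SIT1, ARN1, ARN2, FRE1, FIT2 and FIT3, and was the highest in 0. Over the 5119 genes above background on all arrays it was the lowest in 29.8% and the highest in 36.3%. Against the mean of the other 2 myriocin arrays, replicate 2 stood at -1.25 in SIT1, -0.93 in FIT3 and -0.56 in ARN2 on the log2 scale. The median of this deviation was -0.32 over the 9 genes and 0.02 over the 5119 genes. Myriocin replicate 1 was the highest in 6 of the 9 genes, and the highest in 33.2% of the 5119 genes.

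Without myriocin, replicate 3 was the lowest of its group in 6 of the 9 genes, FET3, FTR1, SIT1, ENB1, ARN2 and FRE1. It was the lowest in 36.4% of the 5119 genes above background on all arrays. FIT2 and FIT3 were highest on that array. The median deviation of replicate 3 from the mean of the other 2 arrays without myriocin was -0.22 over the 9 genes and 0.01 over the 5119 genes. The falls of FET3, FTR1, SIT1 and ENB1 kept their calls whichever single array was left out, with limma adjusted p of at most 0.0338.

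**Figure D3:**
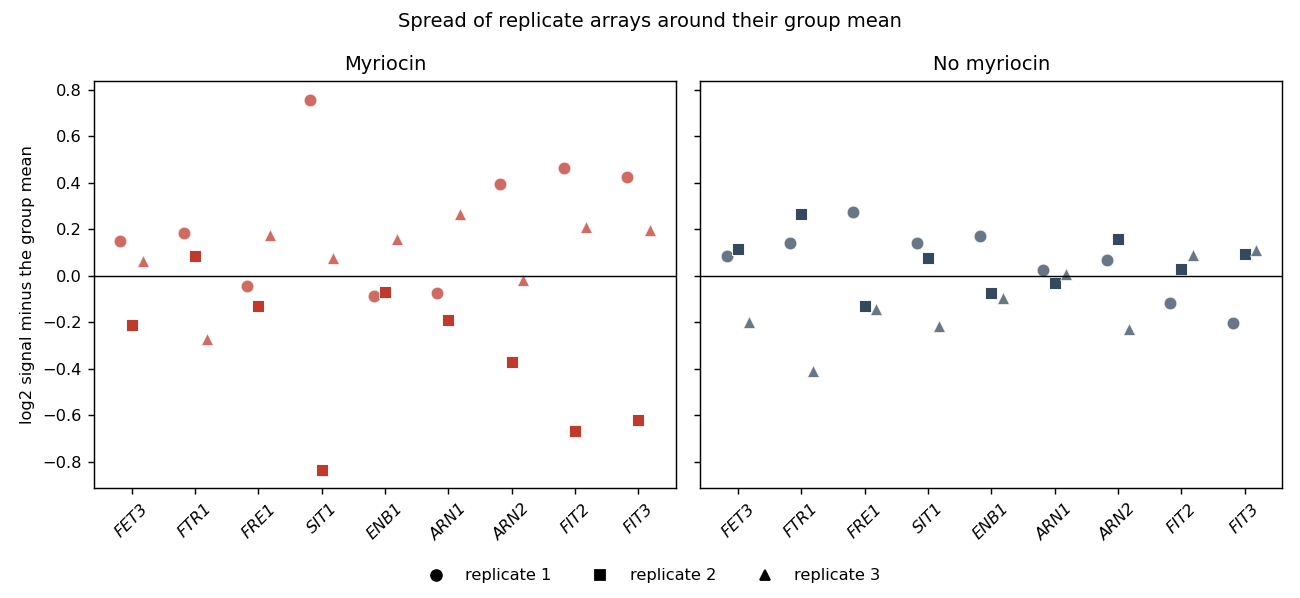
Log2 signal of each array minus its group mean (vertical axis) for the 9 genes above background, with myriocin on the left and without it on the right; symbols are replicates. Replicate 2 with myriocin is the lowest of its group in 7 of 9 genes, and the spread in SIT1, FIT2 and FIT3 is wider with myriocin than without it.

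The authors' deposited table gives signed folds of -5.48 for SIT1 (p-value 0.0066), -3.87 for ENB1 (p-value 7.44e-05), -2.73 for FET3 (p-value 0.000607) and -1.95 for FTR1 (p-value 0.0184). In the authors' deposited table FRE1 and FIT2 both have a fold of 1.43, with p-values of 0.0342 and 0.21, and FIT1, FIT3, ARN1 and ARN2 have p-values between 0.645 and 0.955.

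The next question was what the rest of the yeast iron system did, over 7 further lists of known genes. Of 101 measured genes on these lists 23 were higher and 28 lower with myriocin, shares of 22.8% and 27.7% beside the 25.5% and 28.8% of all genes. Control-scaled, 45 were called higher, FRE2 at background among them, and 8 lower, so the balance of small changes depends on the scale. The shares of all genes called control-scaled are not given here. These and later control-scaled counts therefore cannot be set apart from the shift of all genes. The median log2 fold change of the 101 genes was 0.03, or 0.34 control-scaled, beside -0.03 and 0.29 for all genes.

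Of 9 genes of iron sensing and regulation 3 rose and 4 fell, or 3 rose and 0 fell control-scaled. The count of lower calls rests on each array: it was between 0 and 2 whichever array of either group was left out, and 2 with samples paired by number. AFT1, the main activator of the uptake genes, averaged 8.80 ± 0.17 with myriocin and 8.49 ± 0.03 without it (log2 signal, SD, n = 3 each). It rose by 0.32 (SE 0.10, limma adjusted p = 0.036), a call lost without any 1 array other than myriocin replicate 1 (limma adjusted p from 0.0591 to 0.0905). Its paralog AFT2 had 9.88, 10.12 and 10.08 with myriocin, against 9.53, 9.52 and 9.46 without it, and rose by 0.53 (SE 0.09, limma adjusted p = 0.00341).

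Signals of both activator genes did not overlap between the groups. FRA1, which acts with the glutaredoxins Grx3 and Grx4 to keep Aft1 inactive when iron is ample, rose by 0.47 (SE 0.10, limma adjusted p = 0.00994). GRX3 fell by 0.22 (SE 0.07, limma adjusted p = 0.0322), but stood at 0.09 control-scaled, its call was lost with samples paired by number (limma adjusted p = 0.0663), and it was kept in 1 of 6 fits that left out 1 array. GRX4, named after its values were seen, had a log2 fold change of -0.38 (SE 0.14, limma adjusted p = 0.0563), or -0.06 control-scaled.

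TIS11, also called CTH2, encodes a protein that destabilises mRNAs of iron-using proteins when iron is short, and is itself a target of Aft1. TIS11 had log2 signals of 11.58, 10.94 and 11.43 with myriocin, against 11.72, 12.00 and 12.05 without it. It fell by 0.61 (SE 0.19, limma adjusted p = 0.0323), and the call was lost in the fit that pairs samples by number (limma adjusted p = 0.0596), control-scaled (limma adjusted p = 0.233), and without myriocin replicate 3 or no-myriocin replicate 2 or 3 (limma adjusted p from 0.0611 to 0.0948).

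CTH1, the paralog of TIS11, fell by 0.25 (SE 0.08, limma adjusted p = 0.0315), but stood at 0.06 control-scaled and lost its call without any 1 array other than no-myriocin replicate 3 (limma adjusted p from 0.068 to 0.0959). YAP5, a factor active at high iron, fell by 0.55 (SE 0.15, limma adjusted p = 0.0204). That call was lost control-scaled (limma adjusted p = 0.283) and without myriocin replicate 1 or 2 or no-myriocin replicate 2 or 3 (limma adjusted p from 0.0561 to 0.0693).

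Of 8 other genes listed as targets of Aft1 or Aft2, 3 rose and 2 fell. Without myriocin replicate 1 the higher calls numbered 1, and the lower calls numbered 1 without any 1 myriocin array or no-myriocin replicate 1. In the equal-variance test 1 of these genes was higher and 1 lower. HMX1, the haem oxygenase that releases iron from haem, had log2 signals of 13.79, 13.67 and 13.37 with myriocin, against 12.97, 12.68 and 11.86 without it. It rose by 1.10 (SE 0.29, limma adjusted p = 0.0199), a call lost without myriocin replicate 1 or 2 (limma adjusted p = 0.0618 and 0.055). MRS4, a carrier of iron into mitochondria, had 11.37, 10.87 and 11.08 with myriocin, against 10.58, 10.56 and 9.97 without it. It rose by 0.73 (SE 0.21, limma adjusted p = 0.0257), a call lost without myriocin replicate 1 or 3 (limma adjusted p = 0.074 and 0.0677). In both genes the groups did not overlap, and no-myriocin replicate 3 was the lowest array.

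ECM4, a glutathione transferase gene, rose by 1.62 (SE 0.10, limma adjusted p = 0.000161). ATG41, listed under its other name ICY2 and known for a role in forming autophagosomes, fell by 3.25 (SE 0.23, limma adjusted p = 0.000249). LSO1 fell by 0.69 (SE 0.20, limma adjusted p = 0.0299). The call of LSO1 was lost with samples paired by number (limma adjusted p = 0.0525), control-scaled (limma adjusted p = 0.218), and without any 1 myriocin array or no-myriocin replicate 1 (limma adjusted p from 0.0534 to 0.0941).

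Of the 8 other genes of the reductase family 3 fell and 0 rose. FRE6, a reductase of the vacuole membrane, had log2 signals of 10.17, 10.51 and 10.25 with myriocin, against 11.52, 11.30 and 11.02 without it. It fell by 0.97 (SE 0.15, limma adjusted p = 0.00295). AIM14 fell by 0.53 (SE 0.09, limma adjusted p = 0.00318), and had -0.21 control-scaled (limma adjusted p = 0.191).

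FRE4 was at background on all myriocin arrays and above it on 2 of 3 others, with no-myriocin replicate 3 under the ceiling at 1.76. The mean without myriocin was 1.13-fold above the ceiling, and no bound on the fall is given. FRE4 was called lower (limma adjusted p = 0.0185). That call was lost without myriocin replicate 1 or 3 or no-myriocin replicate 2 (limma adjusted p from 0.057 to 0.062). Lower calls among the 8 genes numbered 2 with values floored at background and in the equal-variance test. FRE2, FRE5 and FRE8, named after their values were seen, were at background on all 6 arrays. Control-scaled, 2 of the 8 genes were called lower and 2 higher, but 1 of the 2 higher ones is FRE2, whose call there is no measured change.

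In vacuolar and low-affinity metal transport 6 of 11 genes fell and 1 rose, with a median log2 fold change of -0.35. Control-scaled, 2 fell and 2 rose, and the median was -0.03. FET4, the low-affinity iron transporter of the plasma membrane, had log2 signals of 12.22, 12.02 and 12.13 with myriocin, against 13.21, 12.94 and 12.76 without it, and fell by 0.85 (SE 0.13, limma adjusted p = 0.00252). SMF3 and FTH1, which export iron from the vacuole, fell by 0.67 and 0.44 (SE 0.14 and 0.10), and FTH1 lost its call control-scaled (limma adjusted p = 0.428).

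SMF2, a manganese transporter gene, fell by 0.65 (SE 0.11), a call lost control-scaled (limma adjusted p = 0.0657). Its relative SMF1 rose by 0.39 (SE 0.12, limma adjusted p = 0.0375), a call lost with samples paired by number (limma adjusted p = 0.0875) and without replicate 2 or 3 of either group (limma adjusted p from 0.101 to 0.109). CCC1, which moves iron into the vacuole, had a log2 fold change of 0.07 (SE 0.07, limma adjusted p = 0.448), or 0.38 control-scaled (limma adjusted p = 0.0305).

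Copper genes were listed because Fet3 needs copper. Of 10 measured, 3 rose and 5 fell, or 4 rose and 1 fell control-scaled, and 3 fell without myriocin replicate 2. CCC2, the ATPase that loads copper into Fet3 in the secretory pathway and a known Aft1 target, had log2 signals of 9.36, 8.98 and 8.95 with myriocin, against 10.19, 10.30 and 10.19 without it. It fell by 1.13 (SE 0.12, limma adjusted p = 0.000818). GEF1, a chloride transporter also needed to load Fet3, fell by 0.62 (SE 0.11, limma adjusted p = 0.0053), and had -0.30 control-scaled (limma adjusted p = 0.158).

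CTR3, a copper transporter gene, fell by 1.09 (SE 0.29, limma adjusted p = 0.0215), a call lost control-scaled (limma adjusted p = 0.0525) and without myriocin replicate 2 (limma adjusted p = 0.0618). MAC1, the copper-sensing activator, rose by 0.51 (SE 0.09, limma adjusted p = 0.00477), and CRS5, a metallothionein gene, by 1.26 (SE 0.13, limma adjusted p = 0.000622). CTR1, a high-affinity copper transporter, had log2 signals of 12.05, 11.57 and 12.47 with myriocin, against 11.38, 11.41 and 11.41 without it. It rose by 0.63 (SE 0.22, limma adjusted p = 0.0494), a call lost with samples paired by number (limma adjusted p = 0.053), and lost whenever 1 array was left out other than myriocin replicate 2 (limma adjusted p from 0.0843 to 0.111).

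**Figure D4:**
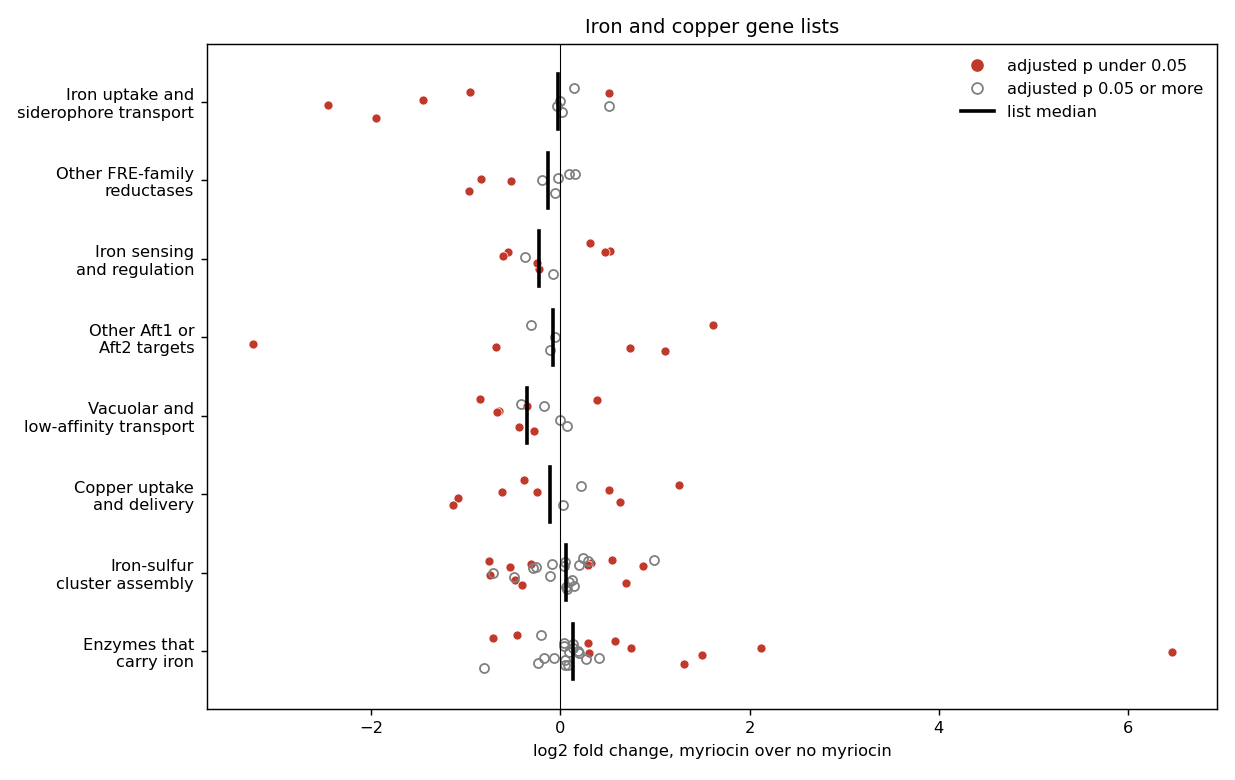
Log2 fold change of myriocin over no myriocin (horizontal axis) of each measured gene on the 8 lists (rows); filled points passed limma's test, open ones did not, and bars are list medians. Iron uptake and siderophore transport, FIT1 at background included, has a median of -0.02, with 4 genes called lower between -2.45 and -0.96. The row labelled enzymes that carry iron, which also holds genes of enzymes that only use it, reaches from TYW1 at -0.71 to CTT1 at 6.46 among called genes.

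The last lists hold genes that use the iron. In iron-sulfur cluster assembly 5 of 28 rose and 6 fell, with a median log2 fold change of 0.06, against 12 higher and 2 lower when control-scaled. MRS3, the paralog of MRS4, rose by 0.87 (SE 0.13) and the chaperone gene SSQ1 by 0.70 (SE 0.11). IBA57 and CFD1, which act in cluster maturation in mitochondria and cytosol, fell by 0.76 and 0.74 (SE 0.10 each). Of 27 genes of enzymes that carry or use iron 8 were higher and 2 lower, against 19 and 0 when control-scaled. The 2 lower genes were TYW1 and ERG11. Lower calls on this list numbered 1 without any single no-myriocin array and 0 in the equal-variance test. TYW1 kept its call in all 6 fits that left out 1 array, and ERG11 in 2 of them. ERG11 also lost its call with samples paired by number (limma adjusted p = 0.0506). The haem catalase genes CTT1 and CTA1 rose by 6.46 and 2.12 (SE 0.47 and 0.60), and RIP1, the iron-sulfur subunit gene of respiratory complex III, was 2.83-fold higher (SE 0.13 on the log2 scale, limma adjusted p = 0.000373). SDH2, the iron-sulfur subunit gene of succinate dehydrogenase, rose by 1.31 (SE 0.12). The call of CTA1 was lost without myriocin replicate 1 (limma adjusted p = 0.0586), and 1 of its arrays without myriocin was at background.

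In the gene order of RefSeq assembly R64, FIT2 and FIT3 are neighbours, and 6 genes lie between ARN2 and ARN1. Of 13 measured neighbours outside the set 4 were higher, 4 lower and 5 not called, beside 54.4% of all genes called either way. SIT1 lies beside AVT2, a putative amino acid transporter gene that fell by 2.24 (SE 0.30), and HPA3, which rose by 0.51 (SE 0.10). FET3 lies beside SEN15, a tRNA splicing gene that fell by 1.28 (SE 0.10), and AAC1, with a log2 fold change of -0.67 (SE 0.27, limma adjusted p = 0.0815). Beside FTR1, which fell, UBP5 rose by 0.62 (SE 0.08), and beside FRE1, which rose, CRR1 and CDC123 fell by 0.46 and 1.03 (SE 0.15 each); the call of CRR1 was lost control-scaled (limma adjusted p = 0.502) and without any 1 array other than myriocin replicate 1 (limma adjusted p from 0.053 to 0.111). HSP31, beside FIT1, rose by 2.82 (SE 0.20), and COS8, beside ARN2, by 0.54 (SE 0.09).

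By Euclidean distance between mean-centred log2 signals over the 6 arrays, the genes outside the set most like SIT1 were AIM34, MIG3 and FHN1, at distances of 0.50, 0.97 and 0.998. AIM34 had log2 signals of 9.03, 7.64 and 8.23 with myriocin, against 10.39, 10.64 and 10.45 without it, with the same order of myriocin arrays as SIT1. Its log2 fold change was -2.19, with -2.12 for MIG3 and -2.96 for FHN1. The gene most like ENB1 was SHE9, at a distance of 0.27 and a log2 fold change of -2.08, and the next lay at 0.41 and 0.43.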

How the data were processed

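Log2 signals of 5900 probe sets on 6 arrays were used as deposited by the authors. The submitters' processing notes name Partek; how signals were summarised and normalised is not given. Per the file headers, the authors' comparison table holds p-values, ratios and signed fold scores. Differences of group means matched the log2 of the deposited ratio to within 8.48e-05. Genes were named from the platform annotation through RefSeq assembly R64, or from the authors' table (24 probe sets). Controls (184), probe sets of several genes (79) and unnamed ones (192) were left out, and the brightest probe set served each of 5420 genes. The array's genome build is not stated, so no coordinates are printed.

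Groups were compared over all genes with limma 3.58.1 in R 4.3.3 (two-sided, Benjamini-Hochberg adjusted p under 0.05), tested on simulated data first. Exact permutation tests used scipy 1.17.1. Members and lists were chosen with earlier results of these data known. All 10 members are named; from other lists, genes past the threshold, led by the 4 with the greatest change, plus AFT1, AFT2, CTH1, TIS11, FET4, CCC1, HMX1, MRS4, CTR1 and CCC2. CUP1-1 and BOL1 were not analysed here.

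Both groups carry replicate numbers 1 to 3. Same-numbered arrays deviated together from their group means across 5420 genes (r of 0.169, 0.233 and 0.175). Other combinations gave r of -0.151 to -0.0552, but deviations within a group cancel out, so these values are not independent of the first. A pairing by number thus comes from the data and not from the labels. The main fit and the exact permutation tests did not use it, and it entered only an alternative fit, as a block of replicate number. Alternatives were that block, quantile normalisation, equal medians, control scaling, leaving out the dimmest 25%, a floor at background, the mean of probe sets, trend and robust variance, each array left out, stricter thresholds and an equal-variance test.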

Additional observations from a re-analysis of the deposited data

How the results depend on the processing

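Members called lower numbered 4 under every alternative run except the 2-fold minimum, which gave 3. The number called higher, 1, was 2 with the arrays scaled to hybridisation controls, 0 at an adjusted p under 0.01, 0 with a 2-fold minimum, 0 in the equal-variance test, and 0 to 3 without single arrays. With the replicate block, 4 were lower and 1 higher (FRE1, limma adjusted p = 0.0406), and the block changed no other member's call. In the other 7 lists, 23 genes called higher became 45 with that scaling, 13 at an adjusted p under 0.01 and 7 with a 2-fold minimum, and 28 called lower became 8, 13 and 3. The log2 fold changes of ARN1, ARN2 and FIT3 changed sign: with that scaling ARN1 stood at 0.307, and without single arrays ARN1 ranged from -0.142 to 0.0868, ARN2 from -0.177 to 0.206 and FIT3 from -0.0648 to 0.458. The cause was not tested. FIT1 was not well above background on any array, so its change was not followed through the alternatives.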
